A study of Homo sapiens with 12 samples.

Results

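The first transcriptional wave after epidermal growth factor (EGF) was read in HCC70 cells that stably carried a scrambled control shRNA (scramble cells). The comparison set the 2 libraries made after 40 min with 50 ng/ml EGF against the 2 libraries made at 0 min, after a night without serum. These are 4 of the 12 libraries of the series, chosen by their labels alone and paired by the number that the labels give each library. The other 8 libraries are scramble cells at 240 min of EGF, and HCC70 cells in which an shRNA targets LAD1 (shLAD1 cells) at 0, 40 and 240 min, so that all 6 groups hold 2 libraries. HCC70 is a human breast cancer line of the basal-like, triple-negative kind, and LAD1 encodes ladinin-1, which the title of the series describes as a filamin binder. No library without EGF was made at 40 min, so what EGF did and what time and handling did after 0 min cannot be told apart. The labels do not say whether the 2 libraries of a group came from separate cultures, so p-values speak only for the spread of these samples, which may be technical.

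EGF binds its receptor, a tyrosine kinase, which switches on the RAS and ERK kinases. ERK and actin signals then act on transcription factors already present in the cell, such as SRF and its ETS-family partners, so that immediate early genes are transcribed without new protein synthesis. Many of these genes encode transcription factors that act in a later wave, and others encode inhibitors that shut the pathway down. Their RNAs are usually short-lived.

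The 4 libraries held 16721013 and 16011936 reads at 40 min, against 12428618 and 12635421 reads at 0 min, so that both 40 min libraries were deeper than both 0 min libraries. The part of depth in the results was not tested. Values are read counts that the authors divided by a size factor per library (normalised read counts). LAD1 had 5808 and 6522 normalised read counts at 40 min and 5925 and 6406 at 0 min in scramble cells, against 1181 and 971 at 40 min and 1091 and 865 at 0 min in shLAD1 cells. All 12 basal markers had reads, and they summed to 109623 to 125888 counts at 40 min, against 83709 to 93455 at 0 min, with 5 of the 12 called higher. KRT5 held the most of these counts, with 46391 and 59942 at 40 min. TP63, also on the basal list, had 25.4 and 16.7 counts at 40 min and 15.5 and 15.4 at 0 min. In bulk RNA, more or fewer cells of a type and more or less RNA per cell cannot be told apart. The 9 luminal markers, 8 of them with reads, summed to 18672 to 20732 counts at 40 min, against 16181 to 18162 at 0 min, and of the 8 tested KRT8 and KRT18 were called higher and GATA3 lower. The defining luminal gene ESR1 had 19.8 and 22.5 counts at 40 min and 29 and 21.6 at 0 min. Other luminal markers were well read, with 1759 and 1849 counts of FOXA1 and 10726 and 8970 of KRT8 at 40 min. The part of these marker shifts in the other results was not tested. The 5 fibroblast markers summed to 287 to 377 counts at 40 min, against 259 to 286 at 0 min, nearly all from COL1A1, with COL1A2 and DCN at 0. The 5 leukocyte markers summed to 876 to 1111 counts at 40 min, against 944 to 1187 at 0 min, nearly all from CD14.

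After 40 min, 444 genes were higher and 86 were lower than at 0 min among 13950 genes tested, which is 3.18% and 0.616% of them. The test was limma on log2(normalised read count + 1), with a term for each of the 4 cell populations (shRNA by library number) and calls at a Benjamini-Hochberg adjusted p under 0.05. Of the rises, 110 exceeded 2-fold, 86 lay between 1.5-fold and 2-fold and 248 were smaller. Of the falls, 8 exceeded 2-fold, 12 lay between 1.5-fold and 2-fold and 66 were smaller. The median log2 change was 0.51 over the rises and -0.40 over the falls, against -0.005 over all genes tested. The gene lists below were chosen with earlier results of these data known. Counts of their called members are to be read beside the 3.18% higher and 0.616% lower over all genes. The 40 min and 0 min libraries did not overlap for 416 of the 444 rises and 78 of the 86 falls, beside 16.2% of all genes that lay higher and 16.1% that lay lower without overlap. Without the term for the population the same test called 118 genes higher and 1 lower, which is 0.846% and 0.00717% of those tested, and scaling by total counts with the term called 360 higher and 166 lower. With 1 of the 4 libraries left out at a time, 262 to 277 genes were higher and 18 to 30 lower.

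**Figure D1:**
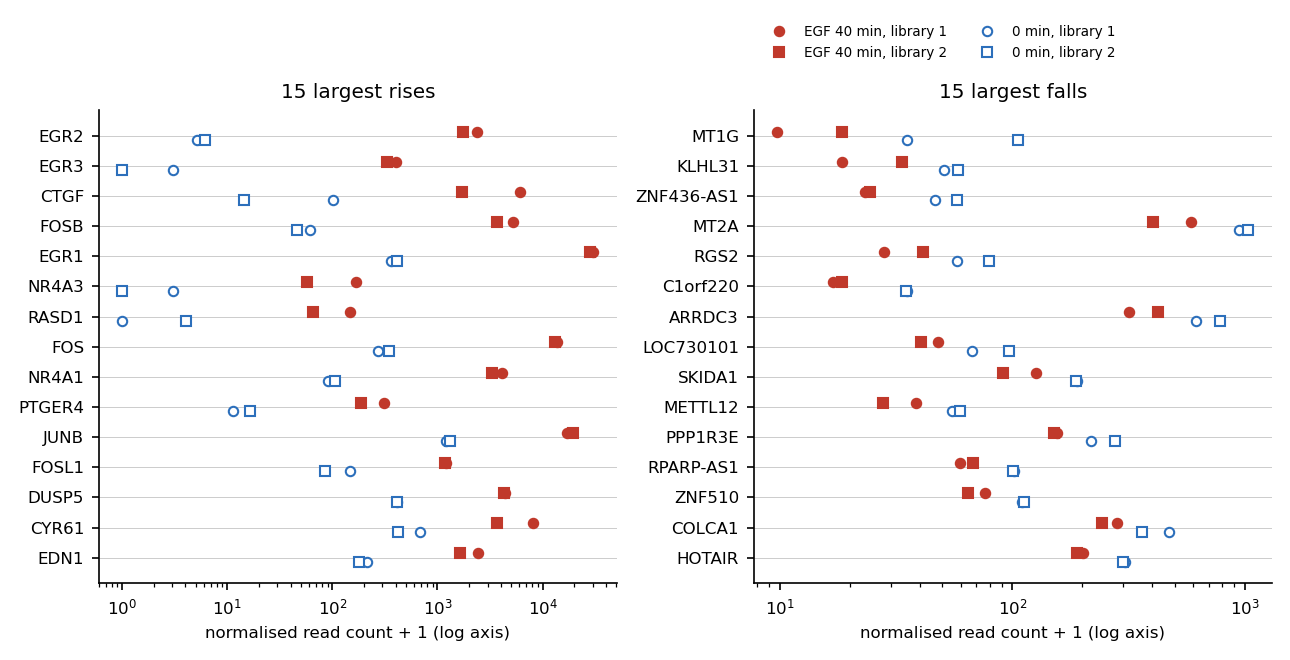
Normalised read counts plus 1 (log axis) of called genes, the 15 that rose most and the 15 that fell most where the mean was at least 20 counts and the groups did not overlap. Each point is 1 library of scramble cells, with EGF 40 min in filled red and 0 min in open blue, circles for library 1 and squares for library 2. The rises span log2 changes of 3.34 (EDN1) to 8.50 (EGR2), and the falls -0.63 (HOTAIR) to -2.18 (MT1G).

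The EGR factors, zinc-finger activators that are textbook immediate early genes, were among the largest rises. EGR1 had 30475 and 28487 normalised read counts at 40 min, against 363 and 410.2 at 0 min. Both 40 min libraries were far above both 0 min libraries, with a 76.2-fold ratio of the means and a log2 change of 6.25 ± 0.34 (SE, adjusted p = 0.0018). EGR2 had 2363 and 1741 counts at 40 min and 4.14 and 5.14 at 0 min, a log2 change of 8.50 ± 0.35 (SE, adjusted p = 1.9e-07). EGR3 was almost unread at 0 min, with 2 reads over both libraries against 908 reads at 40 min, a ratio of 358 after scaling by depth with an exact 95% counting interval of 98.8 to 2961. The NAB genes, whose proteins bind EGR factors and repress them, were not called at this time. NAB2 had 194 and 159 counts at 40 min and 147 and 159 at 0 min, with an adjusted p of 0.51. NAB1 had 1692 and 1943 counts at 40 min and 1637 and 1803 at 0 min, with an adjusted p of 0.6. EGR1, EGR2 and EGR3 were the 3 members of this family called, of 5 tested, and the calls held without the population term and without any 1 library.

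All 3 NR4A genes, which encode orphan nuclear receptors, were higher. NR4A1 had 4138 and 3331 counts at 40 min, against 89 and 104 at 0 min, a log2 change of 5.26 ± 0.11 (SE, adjusted p = 8.8e-18). NR4A3 had 279 reads at 40 min and 2 reads at 0 min, a ratio of 110 with an exact 95% counting interval of 30.2 to 913. NR4A2 had a higher level at 0 min and a smaller change, with 847 and 704 counts at 40 min against 261 and 318 at 0 min and a log2 change of 1.42 ± 0.19 (SE, adjusted p = 0.012). Its call was lost without either 0 min library (adjusted p = 0.0585 and 0.127), with log2 changes of 1.28 to 1.56.

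All 7 FOS and JUN genes, which encode the subunits of the AP-1 transcription factor, were higher, with a median log2 change of 3.43. FOS had 13615 and 13149 normalised read counts at 40 min and 273 and 349 at 0 min, a log2 change of 5.43 ± 0.10 (SE, adjusted p = 7.2e-11). FOSB had 5288 and 3696 counts at 40 min and 60 and 45.2 at 0 min, a log2 change of 6.38 ± 0.13 (SE, adjusted p = 3.1e-18). JUNB had 17012 and 19510.5 counts at 40 min and 1211 and 1319 at 0 min, a log2 change of 3.85 ± 0.12 (SE, adjusted p = 2.0e-05). In each of the 3 genes both 40 min libraries lay far above both 0 min libraries. JUN had 10233 and 7064 counts at 40 min, against 1092 and 1041 at 0 min, a log2 change of 2.99 ± 0.20 (SE, adjusted p = 0.0035). FOSL1, which encodes the later subunit FRA1, had 1213 and 1177 counts at 40 min and 146 and 83.3 at 0 min, a log2 change of 3.43 ± 0.36 (SE, adjusted p = 0.017). The call of FOSL1 was lost whichever of the 4 libraries was left out (adjusted p = 0.0915 to 0.197, log2 change 3.07 to 3.78), and that of JUN without 0 min library 1 (adjusted p = 0.0574, log2 change 2.87). FOSL2 and JUND, both already present at 0 min, changed least, with log2 changes of 0.62 and 0.65 (adjusted p = 0.00073 and 6.1e-05). Without the population term 6 of the 7 genes were called, all but FOSL2.

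Among 14 tested genes for ATF, CREB and small MAF proteins, which pair with AP-1 subunits or bind related sites, 5 were higher. The large rises were in MAFF, with 820.2 and 708 counts at 40 min against 85.9 and 84.3 at 0 min and a log2 change of 3.15 ± 0.11 (SE, adjusted p = 6.0e-16), and in ATF3, a repressor induced by many stresses. ATF3 had 2515 and 1685 counts at 40 min and 321 and 265 at 0 min, a log2 change of 2.81 ± 0.24 (SE, adjusted p = 0.004). The call of ATF3 was lost without either 40 min library (adjusted p = 0.0536 and 0.0689). MAFK, MAFG and JDP2 were higher by log2 changes of 0.84, 0.49 and 0.34, and these 3 were not called without the population term. JDP2 was lost without 3 of the 4 libraries in turn (adjusted p = 0.0885 to 0.35) and MAFG without 0 min library 1 (adjusted p = 0.0712). CREB1, a factor activated by phosphorylation, had 716 and 739 counts at 40 min and 722 and 843 at 0 min and was not called (adjusted p = 0.65).

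Of 4 IER genes, a set of immediate early genes named for their speed and not for sequence, 3 were higher. IER2 had 12646 and 13766 counts at 40 min and 2152 and 2296 at 0 min, with a log2 change of 2.57 ± 0.04 (SE, adjusted p = 1.1e-22), and its 2 libraries at each time lay close together. IER3 had 7359.6 and 7192 counts at 40 min and 1518 and 1309.9 at 0 min, a log2 change of 2.37 ± 0.05 (SE, adjusted p = 5.5e-20). IER5 moved by a log2 change of 0.56 (adjusted p = 0.0029, and 1 without the population term).

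KLF factors, zinc-finger proteins that bind GC-rich sites, included 6 higher and 1 lower gene among 13 tested. KLF2 had 154 and 119 counts at 40 min and 26.9 and 18.5 at 0 min, a log2 change of 2.54 ± 0.27 (SE, adjusted p = 2.3e-06). KLF6 had 11418 and 6889 counts at 40 min and 2300.1 and 2003 at 0 min, a log2 change of 2.05 ± 0.15 (SE, adjusted p = 0.0038). KLF10, also known as a TGF-beta-inducible gene, had 957 and 1395 counts at 40 min and 458 and 569 at 0 min, a log2 change of 1.18 ± 0.08 (SE, adjusted p = 2.1e-09). KLF3, KLF7 and KLF4 were higher by log2 changes of 0.71, 0.63 and 0.37, and KLF5 was lower by a log2 change of -0.18. None of these 4 was called without the population term, and KLF7 and KLF5 were also lost whichever library was left out (adjusted p = 0.0679 to 0.22 for KLF7 and 0.194 to 0.389 for KLF5). KLF4 was lost without 40 min library 1 (adjusted p = 0.0922).

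The ETS family, targets of ERK phosphorylation that include the SRF partners, had 3 of 17 tested genes higher, which is 17.6%, beside 3.18% of all genes. ELF3, an epithelial ETS factor, had 12977 and 15271 counts at 40 min and 7531 and 8749.9 at 0 min, a log2 change of 0.79 ± 0.05 (SE, adjusted p = 1.0e-09). ETS2 had 829.7 and 816 counts at 40 min and 488 and 469 at 0 min, a log2 change of 0.78 ± 0.07 (SE, adjusted p = 9.4e-09), and ETV3 was higher by a log2 change of 0.67 (adjusted p = 0.00011, and 0.074 without the population term). The median log2 change over the 17 genes was 0.03. In the MYC network 2 of 10 tested genes were higher. MYC had 3036 and 3779.9 counts at 40 min and 1403 and 1568 at 0 min, a log2 change of 1.19 ± 0.14 (SE, adjusted p = 0.013). Its call was lost without either 0 min library (adjusted p = 0.135 and 0.143). MXD1, a MAX partner that opposes MYC, had 531 and 615 counts at 40 min and 339.5 and 413 at 0 min, a log2 change of 0.61 ± 0.07 (SE, adjusted p = 1.3e-06).

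A further list of 31 inducible transcription regulators, chosen with earlier results of these data known, held 15 higher and no lower genes. That is 48.4% of the list, beside 3.18% of all genes, and the choice of the list bears on this share. Of the 15, 6 were called without the population term, and fewer than 15 of the list with any 1 library left out. The largest rise was in CSRNP1, a nuclear protein first described as induced by AXIN1, with 745 and 586 counts at 40 min and 199.8 and 144 at 0 min, a log2 change of 1.96 ± 0.10 (SE, adjusted p = 1.7e-12). SRF itself, the factor that binds the serum response element, had 2096 and 2083 counts at 40 min and 873 and 905 at 0 min, a log2 change of 1.23 ± 0.07 (SE, adjusted p = 3.5e-10). KDM6B, an H3K27 demethylase, had 1121 and 1169.8 counts at 40 min and 529 and 516 at 0 min, a log2 change of 1.13 ± 0.06 (SE, adjusted p = 1.3e-12). The 4 libraries of each of these genes formed separate pairs. SERTAD1, HES1 and SOX9 were higher by log2 changes of 1.01, 0.79 and 0.67 and were called with and without the population term. FOXQ1 and SNAI2, both linked to epithelial-mesenchymal transition, differed between the 2 libraries of a time. FOXQ1 had 1181 and 1596 counts at 40 min and 480.3 and 596 at 0 min, a log2 change of 1.36 ± 0.08 (SE, adjusted p = 2.8e-10), and SNAI2 had 597 and 980.2 counts at 40 min and 309.5 and 516 at 0 min, a log2 change of 0.93 ± 0.10 (SE, adjusted p = 4.1e-07). Neither was called without the term (adjusted p = 1 for FOXQ1 and 1 for SNAI2).

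Genes bound by SRF, through ETS partners or the actin-regulated MRTF coactivators, carry a CArG box, and 4 genes that were higher at 40 min and hold such letters in the promoter are printed to show where they lie. The stretches are the 250 bases before the RefSeq start of each gene in GRCh38.p14, on the gene's strand, 5′ to 3′, with CArG boxes in capitals. EGR1 lies at chr5:138465229-138465478 on the plus strand, SRF at chr6:43171019-43171268 on the plus strand, TPM4 at chr19:16067288-16067537 on the plus strand and FHL2 at chr2:105438514-105438763 on the minus strand.
EGR1: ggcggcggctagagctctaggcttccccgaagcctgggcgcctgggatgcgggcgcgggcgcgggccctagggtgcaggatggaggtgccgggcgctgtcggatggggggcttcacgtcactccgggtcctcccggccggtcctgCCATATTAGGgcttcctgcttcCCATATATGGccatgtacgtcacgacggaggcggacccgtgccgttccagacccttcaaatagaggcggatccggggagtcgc
SRF: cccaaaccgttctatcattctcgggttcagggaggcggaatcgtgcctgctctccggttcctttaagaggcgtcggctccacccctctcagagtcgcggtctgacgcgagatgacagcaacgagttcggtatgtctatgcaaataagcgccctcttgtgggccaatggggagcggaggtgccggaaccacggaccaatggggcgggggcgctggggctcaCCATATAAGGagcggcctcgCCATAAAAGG
TPM4: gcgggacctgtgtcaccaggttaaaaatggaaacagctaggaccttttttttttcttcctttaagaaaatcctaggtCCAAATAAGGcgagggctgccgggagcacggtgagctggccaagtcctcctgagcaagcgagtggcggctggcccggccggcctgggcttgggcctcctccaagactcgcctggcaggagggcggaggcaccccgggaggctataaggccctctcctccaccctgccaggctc
FHL2: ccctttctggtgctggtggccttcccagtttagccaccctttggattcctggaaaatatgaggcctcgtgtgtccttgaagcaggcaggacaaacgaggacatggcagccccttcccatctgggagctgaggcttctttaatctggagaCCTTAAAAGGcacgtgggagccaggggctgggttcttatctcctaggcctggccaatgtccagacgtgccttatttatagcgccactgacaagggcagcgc
EGR1 held 2 boxes, the first letters of which lie 105 and 83 bases before the start, SRF 2 at 30 and 10 bases, TPM4 1 at 173 bases and FHL2 1 at 101 bases. Over the 300 bases from 250 before to 50 after the start, on both strands, 351 of 27305 RefSeq promoters, or 1.29%, held a CArG box. Among the genes tested with a promoter in the table, 121 of 11084, or 1.09%, held it. The box stood in 13 of 342 higher genes, or 3.80%, and in 2 of 71 lower genes, or 2.82%. The table covered 77.0% of the 444 higher genes, 82.6% of the 86 lower genes and 79.5% of all genes tested. Genes without a promoter in the table are left out of these shares, which rest on few genes and were not tested. Of the 15 largest rises, 11 had a promoter in the table, and EGR1 alone of these 11 held a box in this window, while those of FOS, FOSB, EGR2, JUNB, CTGF and the other 5 held none. A match of letters is a description and shows no binding, and no match says only that the letters are not in this window.

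In a list of 22 SRF and MRTF target genes, of which 19 were tested, 8 were higher and none lower, with a median log2 change of 0.45. Of the 16 with a promoter in the table, 5 held a CArG box, namely TPM4, FHL2 and CNN2, which were called higher, and ACTG1 and FLNA, which were not called. The secreted matrix proteins of the CCN family led them. CYR61 had 8063 and 3721 counts at 40 min and 676 and 418 at 0 min, a log2 change of 3.36 ± 0.10 (SE, adjusted p = 3.6e-08). CTGF had 6155 and 1726 counts at 40 min and 100.4 and 13.4 at 0 min, and library 1 was several times above library 2 at each time. Its log2 change was 6.42 ± 0.27 (adjusted p = 3.0e-07, and 0.1 without the population term). TUFT1, which encodes tuftelin, had 4333 and 3841 counts at 40 min and 906 and 731 at 0 min, a log2 change of 2.32 ± 0.14 (SE, adjusted p = 0.00054). Actin-binding genes had smaller changes. TPM4, a tropomyosin, had 7245 and 6864 counts at 40 min and 4202 and 3681 at 0 min, a log2 change of 0.84 ± 0.07 (SE, adjusted p = 8.2e-06). CNN2, FHL2, TPM1 and ZYX were higher by log2 changes of 0.65, 0.62, 0.45 and 0.36, and these 4 were not called without the population term. ZYX was also lost without library 1 of either time (adjusted p = 0.0683 and 0.0744), and the libraries overlapped for TPM1. The cytoplasmic actin gene ACTG1 had 29638 and 32384 counts at 40 min and 14324 and 14824 at 0 min, a log2 change of 1.09 ± 0.19 that missed the threshold (adjusted p = 0.078) and passed it without the term (adjusted p = 0.032). FLNA, which encodes a filamin, had 28480 and 20340.4 counts at 40 min and 26581 and 19179.7 at 0 min and was not called (adjusted p = 0.6). VCL, which encodes vinculin, had 2390 and 2209 counts at 40 min and 2519.6 and 2253 at 0 min (adjusted p = 0.81).

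Genes for inhibitors of the pathway rose in the same 40 min. Of 10 tested DUSP genes, which encode phosphatases that inactivate MAP kinases, 7 were higher, with a median log2 change of 1.73 and 6 calls whichever library was left out. DUSP5, a nuclear ERK phosphatase, had 4352 and 4321 counts at 40 min and 412 and 408 at 0 min, a log2 change of 3.40 ± 0.17 (SE, adjusted p = 0.00063). DUSP2 had 294 and 239 counts at 40 min and 30 and 29.8 at 0 min, a log2 change of 3.11 ± 0.14 (SE, adjusted p = 1.1e-13). DUSP6, which acts on ERK in the cytoplasm, had 213 and 165 counts at 40 min and 27.9 and 31.9 at 0 min, a log2 change of 2.61 ± 0.22 (SE, adjusted p = 5.3e-05). DUSP4 and DUSP1 were higher by log2 changes of 2.36 and 2.32 (adjusted p = 6.4e-10 and 1.6e-09). DUSP8 and DUSP14 were higher by 1.14 and 0.32, and neither was called without the population term. DUSP14 was also lost whichever library was left out (adjusted p = 0.106 to 0.569).

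Of 6 tested Sprouty and SPRED genes, inhibitors of RAS and RAF activation, 2 were higher. SPRY2 had 1068 and 938 counts at 40 min and 379 and 367 at 0 min, a log2 change of 1.42 ± 0.10 (SE, adjusted p = 2.5e-07). SPRY4 was barely read, with 27.8 and 6.68 counts at 40 min and 10.4 and 2.06 at 0 min, and its call was lost whichever of the 4 libraries was left out (adjusted p = 0.113 to 0.353). Among 13 tested inhibitors that act at the receptor, 2 were higher, which is 15.4%, beside 3.18% of all genes. ERRFI1, also called MIG6, which binds and inhibits the kinase domain of EGFR, had 5449 and 5741 counts at 40 min and 1280.5 and 1594 at 0 min, a log2 change of 1.97 ± 0.12 (SE, adjusted p = 0.00032). SOCS1 was higher by a log2 change of 0.61 (adjusted p = 0.032, and 0.235 to 0.65 without 3 of the 4 libraries in turn). SOCS3 had 119 and 154 counts at 40 min and 50.7 and 66.8 at 0 min, which do not overlap, and missed the threshold (adjusted p = 0.21).

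Of 10 tested genes for proteins that speed up mRNA decay, 5 were higher and stayed called without the population term. ZFP36, or tristetraprolin, which binds AU-rich 3′ ends, had 4828 and 5372 counts at 40 min and 728 and 867 at 0 min, a log2 change of 2.68 ± 0.07 (SE, adjusted p = 8.6e-12). Its paralogs ZFP36L1 and ZFP36L2 were higher by log2 changes of 0.86 and 0.91 (adjusted p = 7.2e-13 and 3.7e-13). ZC3H12A, the endonuclease regnase-1, had 1943 and 2188 counts at 40 min and 584 and 613 at 0 min, a log2 change of 1.78 ± 0.09 (SE, adjusted p = 1.2e-08). TOB1, which recruits the deadenylase, was higher by 0.94 (adjusted p = 0.0092) and lost its call without either 0 min library (adjusted p = 0.117 and 0.15). BTG2, a partner of the same deadenylase and an immediate early gene in other cells, had 117 and 101 counts at 40 min and 106 and 87.4 at 0 min and was not called (adjusted p = 0.74).

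EGFR, the receptor that binds EGF, had 2750.1 and 3126 counts at 40 min and 2792 and 3117 at 0 min (adjusted p = 0.99), and none of the 3 ERBB genes tested was called. Of 8 tested genes for EGF-family ligands, 4 were higher, 1 of them called without the population term. HBEGF, which encodes heparin-binding EGF, had 323 and 354 counts at 40 min and 44.5 and 53.5 at 0 min, a log2 change of 2.77 ± 0.15 (SE, adjusted p = 2.8e-10). EREG, which encodes epiregulin, had 69.8 and 89.3 counts at 40 min and 22.8 and 17.5 at 0 min, a log2 change of 1.93 ± 0.19 (SE, adjusted p = 1.0e-07), and missed the threshold without the term (adjusted p = 0.054). AREG, which encodes amphiregulin, was near the limit of detection, with 8.73 and 13.4 counts at 40 min and 4.14 and 2.06 at 0 min, and its call (adjusted p = 0.015) was lost without library 2 of either time (adjusted p = 0.494 and 0.536). EPGN was higher by a log2 change of 0.50 (adjusted p = 0.00025, and 1 without the term).

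Secreted signals other than EGF ligands included 5 higher and no lower genes among 23 tested cytokine and growth factor genes. EDN1, which encodes the vasoconstrictor endothelin-1, had 2432 and 1627 counts at 40 min and 212 and 179.9 at 0 min, a log2 change of 3.34 ± 0.11 (SE, adjusted p = 7.3e-11). LIF, a cytokine of the interleukin-6 family, had 739 and 773 counts at 40 min and 135 and 149 at 0 min, a log2 change of 2.41 ± 0.10 (SE, adjusted p = 4.6e-14). The neutrophil chemokines CXCL1 and CXCL8 were higher by log2 changes of 0.91 and 0.87, and VEGFA by 0.37. These 3 were not called without the population term, and CXCL8 was lost without 3 of the 4 libraries in turn (adjusted p = 0.0533 to 0.137). Prostaglandin genes held 2 higher members among 9 tested. PTGER4, a receptor for prostaglandin E2, had 306 and 186 counts at 40 min and 10.4 and 15.4 at 0 min, a log2 change of 4.13 ± 0.32 (SE, adjusted p = 3.5e-06). PTGS2, which encodes cyclooxygenase 2, had 765 and 847 counts at 40 min and 355 and 503 at 0 min, a log2 change of 0.93 ± 0.13 (SE, adjusted p = 0.00054), and was not called without the term (adjusted p = 1).

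EPHA2, a receptor tyrosine kinase for ephrins, was the 1 member higher among 13 tested ephrin and Eph genes, with 6582 and 7842 counts at 40 min and 1422 and 1364 at 0 min, a log2 change of 2.37 ± 0.11 (SE, adjusted p = 3.0e-05). Among 15 tested genes of plasminogen activation and matrix, THBS1, PLAU and SERPINB2 were higher and none was lower. THBS1, which encodes thrombospondin-1, differed more between libraries than between times, with 4674 and 458 counts in libraries 1 and 2 at 40 min against 1125 and 97.7 at 0 min. Within each pair it was higher at 40 min, and its log2 change was 2.14 ± 0.07 with the population term (adjusted p = 2.2e-16) and was not called without it (adjusted p = 1). PLAU and SERPINB2 were higher by log2 changes of 0.73 and 0.49 and were likewise called with the term alone.

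Kinases and small GTPases were also among the called genes. Of 18 inducible kinases and pseudokinases tested, 7 were higher, with 7 called whichever library was left out. Without the population term 6 of the 7 were called, all but PLK2, and MAP3K8 was called besides. TRIB1, a pseudokinase that guides protein degradation, had 5013 and 4988 counts at 40 min and 1336 and 1748 at 0 min, a log2 change of 1.71 ± 0.11 (SE, adjusted p = 0.00015). PLK3, SIK1 and PIM1 were higher by log2 changes of 1.28, 1.12 and 1.05 (adjusted p = 3.6e-07, 4.9e-06 and 4.7e-08), and PIM3, MAP3K14 and PLK2 by 0.66, 0.54 and 0.41. Among 16 tested small GTPases and their regulators, 5 were higher and 1 lower, with 1 of the rises called without the population term and 2 to 5 with 1 library left out. RASD1, a RAS-like protein, had 262 reads at 40 min and 3 reads at 0 min, a ratio of 68.9 with an exact 95% counting interval of 23.3 to 336, and its call was lost without 40 min library 1 (adjusted p = 0.0752). RND3, which opposes RHOA, had 2927 and 2672 counts at 40 min and 1341 and 1336 at 0 min, a log2 change of 1.06 ± 0.06 (SE, adjusted p = 1.2e-10), and was not called without the term (adjusted p = 0.22). RHOB had 950.3 and 599.5 counts at 40 min and 213 and 139 at 0 min, which did not overlap, yet it missed the threshold (log2 change 2.13 ± 0.34, adjusted p = 0.062).

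**Figure D2:**
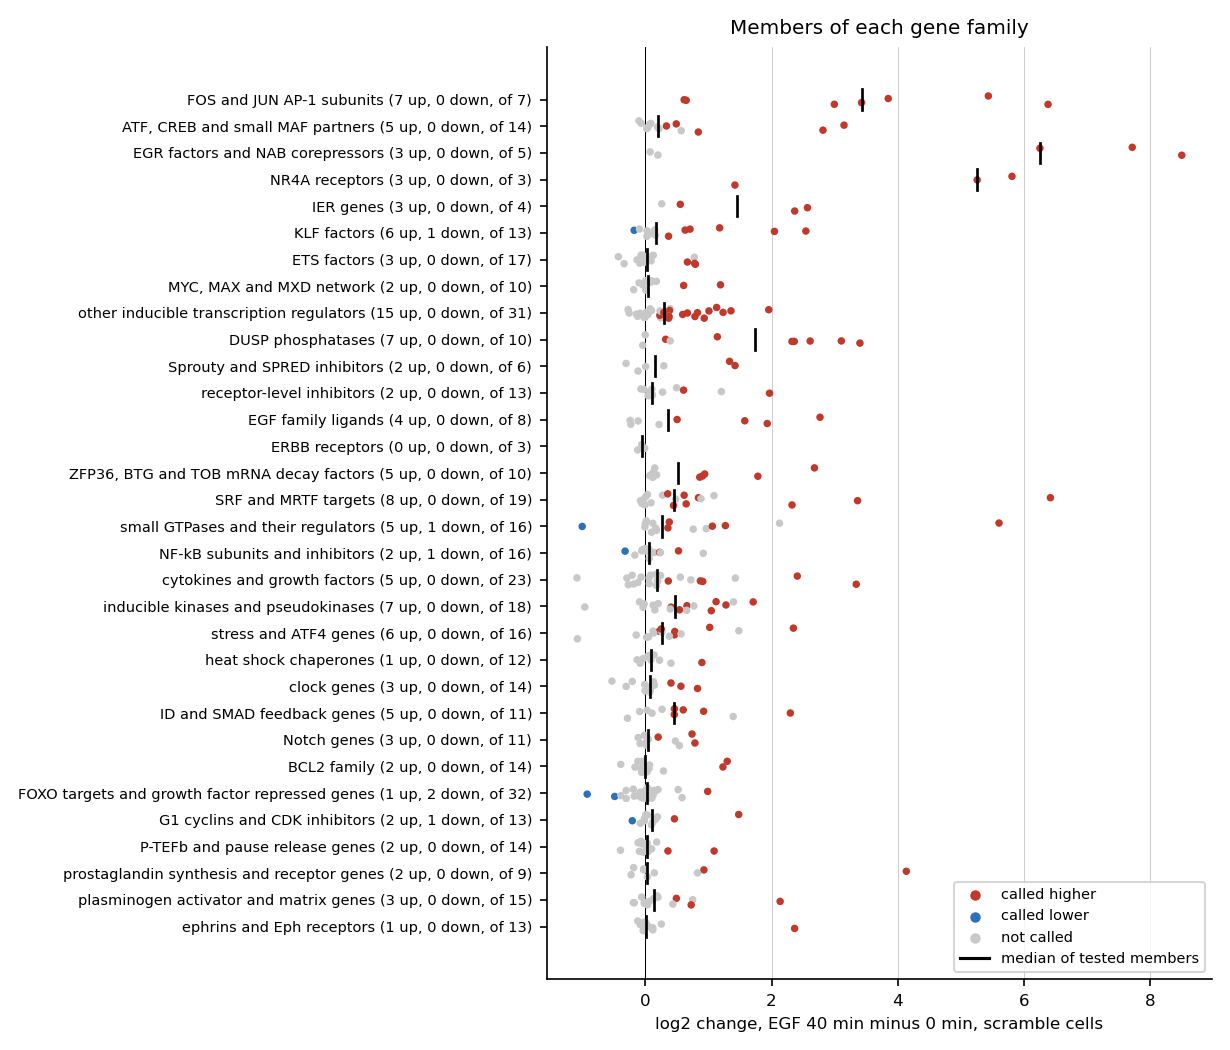
The log2 change of each tested member of the gene families (points, EGF 40 min minus 0 min in scramble cells), with the family median as a black bar and the counts of called members beside the name. Red marks members called higher, blue called lower and grey not called. The medians of the EGR and NAB, NR4A and AP-1 families, at 6.25, 5.26 and 3.43, lie far to the right, while those of the ERBB, ETS and FOXO lists lie at -0.06, 0.03 and 0.03.

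Growth arrest and survival genes were among the rises. CDKN1A, which encodes the CDK inhibitor p21, had 2778 and 2798 counts at 40 min and 1088 and 917 at 0 min, a log2 change of 1.48 ± 0.06 (SE, adjusted p = 9.4e-12). CCND1, which encodes cyclin D1, had 1955 and 2550 counts at 40 min and 1483 and 1768 at 0 min, a log2 change of 0.46 ± 0.06 (SE, adjusted p = 9.6e-06), and was not called without the population term. CDKN2C was lower by a log2 change of -0.21 and was lost whichever library was left out (adjusted p = 0.0988 to 0.46). Of 14 tested BCL2-family genes 2 were higher, which is 14.3%, beside 3.18% of all genes, and these 2 have opposite functions in apoptosis. MCL1, a short-lived survival protein, had 10412 and 11124 counts at 40 min and 4098 and 4669 at 0 min, a log2 change of 1.299 ± 0.06 (SE, adjusted p = 2.0e-11), and PMAIP1, which encodes the MCL1 antagonist NOXA, had 492 and 519 counts at 40 min and 227 and 204 at 0 min, a log2 change of 1.23 ± 0.09 (SE, adjusted p = 8.5e-10). Of 16 stress and ATF4 genes 6 were higher, 2 of them without the population term and 2 to 5 with 1 library left out. PPP1R15A, or GADD34, which directs a phosphatase to the translation factor eIF2-alpha, had 3094 and 2783 counts at 40 min and 582 and 571 at 0 min, a log2 change of 2.35 ± 0.07 (SE, adjusted p = 7.5e-14). GADD45B had 731 and 534 counts at 40 min and 325 and 291 at 0 min, a log2 change of 1.02 ± 0.11 (SE, adjusted p = 1.4e-06). Of the 12 heat shock chaperones DNAJB1 alone was called, with a log2 change of 0.90 (adjusted p = 2.7e-09), and the inducible HSP70 gene HSPA1A had 1272 and 1253 counts at 40 min and 1202 and 1199 at 0 min (adjusted p = 0.74).

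Members of lists for BMP and TGF-beta feedback, Notch, the clock and P-TEFb were also called. Of their tested members 45.5%, 27.3%, 21.4% and 14.3% were higher, beside 3.18% of all genes. Among 11 tested genes of BMP and TGF-beta feedback, 5 were higher, 2 of them without the population term. ID1, which blocks basic helix-loop-helix factors, had 3093 and 3887 counts at 40 min and 822 and 604 at 0 min, a log2 change of 2.30 ± 0.20 (SE, adjusted p = 0.008). TGIF1, a SMAD corepressor, had 1439.7 and 1168 counts at 40 min and 718 and 649 at 0 min, a log2 change of 0.92 ± 0.06 (SE, adjusted p = 2.3e-10). Of 11 tested Notch genes JAG1, HES1 and NOTCH1 were higher, by log2 changes of 0.74, 0.79 and 0.20, and HES1 alone passed without the term. NOTCH1 was lost without 3 of the 4 libraries in turn (adjusted p = 0.221 to 0.696). Of 14 clock genes PER2, PER1 and NR1D1 were higher, by 0.83, 0.56 and 0.41, and none was called without the term. PER1 was lost without 3 of the 4 libraries in turn (adjusted p = 0.0979 to 0.627) and NR1D1 without library 2 of either time (adjusted p = 0.686 and 0.785). Of 14 genes of P-TEFb and paused polymerase, CCNL1, a cyclin of splicing complexes, was higher by 1.09 (adjusted p = 1.6e-12), and CCNT1 by 0.36. CCNT1 was lost whichever library was left out (adjusted p = 0.0752 to 0.282).

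Of 16 tested NF-kB genes 2 were higher and 1 was lower, none of them called without the population term. NFKB2 and BIRC3 were higher by log2 changes of 0.23 and 0.53, and lost without all 4 libraries in turn (NFKB2, adjusted p = 0.0938 to 0.739) and without 0 min library 1 or 40 min library 2 (BIRC3, adjusted p = 0.0744 and 0.203). TNFAIP3, a rapid NF-kB target, had 71.4 and 101 counts at 40 min and 92.1 and 98.7 at 0 min (adjusted p = 0.77). NFKBIA, which encodes the inhibitor of NF-kB, was lower by a log2 change of -0.32 (adjusted p = 0.015), a call lost whichever library was left out (adjusted p = 0.0688 to 0.369). None of 76 genes for cytosolic ribosomal proteins and none of 29 clustered histone genes was called, with median log2 changes of 0.03 and -0.14. Over all genes 3.18% were called higher and 0.616% lower, shares at which lists of this size would hold few calls. Poly-A selected libraries hold few of the histone mRNAs, which mostly lack a tail.

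Of the 86 falls, 1 was called without the population term, that of C21orf58. C21orf58 had 333 and 322 counts at 40 min and 464 and 476 at 0 min, a log2 change of -0.52 ± 0.09 (SE, adjusted p = 0.00026). ARRDC3, an arrestin-domain gene repressed by growth factors and activated by FOXO factors, had 316 and 423 counts at 40 min and 615 and 779 at 0 min, a log2 change of -0.92 ± 0.10 (SE, adjusted p = 2.7e-06), and held its call without any 1 library. TXNIP, which encodes the thioredoxin-interacting arrestin that lowers glucose uptake, had 992 and 889 counts at 40 min and 1306 and 1320.2 at 0 min, a log2 change of -0.48 ± 0.07 (SE, adjusted p = 9.9e-05), and also held without any 1 library. These were the 2 lower members of a list of 32 FOXO targets and growth factor repressed genes, in which PDK4 was higher by a log2 change of 0.99 (adjusted p = 0.041, and 0.576 and 0.856 without library 1 of either time). The median over the list was 0.03.

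Metallothionein genes, which encode small metal-binding proteins and are induced by zinc and glucocorticoids, gave 4 of the falls. MT1G had 8.73 and 17.5 counts at 40 min and 34.2 and 105 at 0 min, a log2 change of -2.18 ± 0.30 (SE, adjusted p = 2.6e-05). MT2A had 588 and 403 counts at 40 min and 941 and 1034 at 0 min, a log2 change of -1.02 ± 0.16 (SE, adjusted p = 0.029). MT1E and MT1X were chosen after their values were seen, and the libraries of the 2 times overlapped for both. MT1E had 75.4 and 10 counts at 40 min and 163 and 66.8 at 0 min, a log2 change of -1.86, and MT1X had 1036 and 1385 at 40 min and 1237 and 1863 at 0 min, a log2 change of -0.34. The call of MT1X was lost without 40 min library 2 (adjusted p = 0.233). MT1F and MT1L, the other 2 members tested, had log2 changes of -0.26 and -0.02 and were not called. None of the 6 was called without the population term, and these near-identical genes can share reads. In shLAD1 cells the 4 genes lower in scramble cells had log2 changes of the other sign, 0.89 in MT1G, 0.33 in MT1E, 0.30 in MT2A and 0.20 in MT1X, none of them called. RGS2, a regulator of G-protein signals, had 27 and 40.1 counts at 40 min and 56.9 and 78.1 at 0 min, a log2 change of -0.998 ± 0.20 (SE, adjusted p = 0.0023), a call lost without 0 min library 2 or 40 min library 1 (adjusted p = 0.0799 and 0.106). HOTAIR, a long non-coding RNA of a HOX cluster, had 199.9 and 189 counts at 40 min and 304 and 297 at 0 min, a log2 change of -0.63 ± 0.13 (SE, adjusted p = 0.0064), lost without 3 of the 4 libraries in turn (adjusted p = 0.0547 to 0.257). ZNF436-AS1, an antisense RNA whose reads cannot be told apart from those of its partner where counting ignores strand, had 22.2 and 23.4 counts at 40 min and 45.5 and 56.6 at 0 min, a log2 change of -1.12 ± 0.27 (SE, adjusted p = 0.013), lost whichever library was left out (adjusted p = 0.0752 to 0.344). COLCA1, named for its tie to colorectal cancer, had 282 and 242 counts at 40 min and 470 and 359.9 at 0 min, a log2 change of -0.65 ± 0.12 (SE, adjusted p = 0.001), lost without 0 min library 1 (adjusted p = 0.143). The remaining 8 of the 15 largest falls were KLHL31, C1orf220, LOC730101, SKIDA1, METTL12, PPP1R3E, RPARP-AS1 and ZNF510, with log2 changes of -1.13 to -0.66, each lost without 2 to 4 of the 4 libraries in turn (adjusted p = 0.0526 to 0.751). Of 444 genes tested with a symbol that starts with ZNF, 10 were higher and 7 lower. These are 2.25% and 1.58% of them, beside 3.18% and 0.616% of all genes. The 7 lower entries include both ZNF436-AS1 and its partner ZNF436, which may share reads. ZNF436 had a log2 change of -0.43 (adjusted p = 0.0023, and 0.56 without the population term).

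Called genes spanned less of the genome than the genes tested. The median span of a gene in GENCODE 29 was 14.8 kb over the higher genes with an entry, 9.29 kb over those more than 2-fold higher and 9.75 kb over the lower genes, against 30.8 kb over all genes tested. The longest transcript had a median of 5 exons in the higher and 4 in the lower genes, against 8 over all genes. Genes other than protein-coding made up 1.85% of the higher and 15.2% of the lower genes, against 6.24% of all genes. The letters TTATTTATT, a core of the AU-rich elements that ZFP36 proteins bind, stood in the 3′ UTR of 98 of 423 higher genes, or 23.2%, against 8.99% of all genes, on the sense strand of the longest transcript. No test was made of these shares, and the 3′ UTRs of the higher genes were a little longer, with a median of 1.42 kb against 1.29 kb over all genes. Of the 86 lower genes 67 had a 3′ UTR entry, which is 100% of those annotated as protein-coding. The letters stood in 4 of these 67, or 5.97%, beside 8.99% of all genes.

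The 240 min and 40 min comparisons share the 0 min libraries, so their values are given side by side and their overlap is not read. At 240 min against 0 min 3525 genes were higher and 3190 lower, 25.3% and 22.9% of those tested. FOS had 273 and 349 counts at 0 min, 13615 and 13149 at 40 min and 373 and 373 at 240 min, and EGR1 had 363 and 410.2 counts at 0 min, 30475 and 28487 at 40 min and 698 and 509.9 at 240 min. NR4A1 was again at its starting level, with 89 and 104 counts at 0 min, 4138 and 3331 at 40 min and 94.6 and 94.6 at 240 min. In these 3 genes the 240 min libraries lay within about 2-fold of the 0 min libraries. JUNB, DUSP5, LIF, IER3, MAFF and EPHA2 had come down from 40 min and remained above 0 min in both libraries, as in EPHA2 with 1422 and 1364 counts at 0 min, 6582 and 7842 at 40 min and 4371 and 4505 at 240 min.

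Other genes of the first wave were as high or higher later. FOSL1 had 146 and 83.3 counts at 0 min, 1213 and 1177 at 40 min and 2761 and 2497 at 240 min. DUSP6 had 27.9 and 31.9 counts at 0 min, 213 and 165 at 40 min and 383 and 354 at 240 min, and EREG had 22.8 and 17.5 counts at 0 min, 69.8 and 89.3 at 40 min and 104 and 128 at 240 min. FHL2 and CXCL1 also reached higher levels at 240 min than at 40 min in both libraries. ATF3 had 321 and 265 counts at 0 min, 2515 and 1685 at 40 min and 134 and 66.8 at 240 min, so that both 240 min libraries lay below both 0 min libraries. GADD45B, TOB1 and PER1 likewise lay above them at 40 min and below them at 240 min. TXNIP was lower at each later time, with 1306 and 1320.2 counts at 0 min, 992 and 889 at 40 min and 340 and 263 at 240 min. The median log2 change of the FOXO list was 0.03 at 40 min and -0.49 at 240 min, where 2 of its 32 genes were higher and 20 lower than at 0 min. NAB2, which had not been called at 40 min, reached 448 and 359.6 counts at 240 min.

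**Figure D3:**
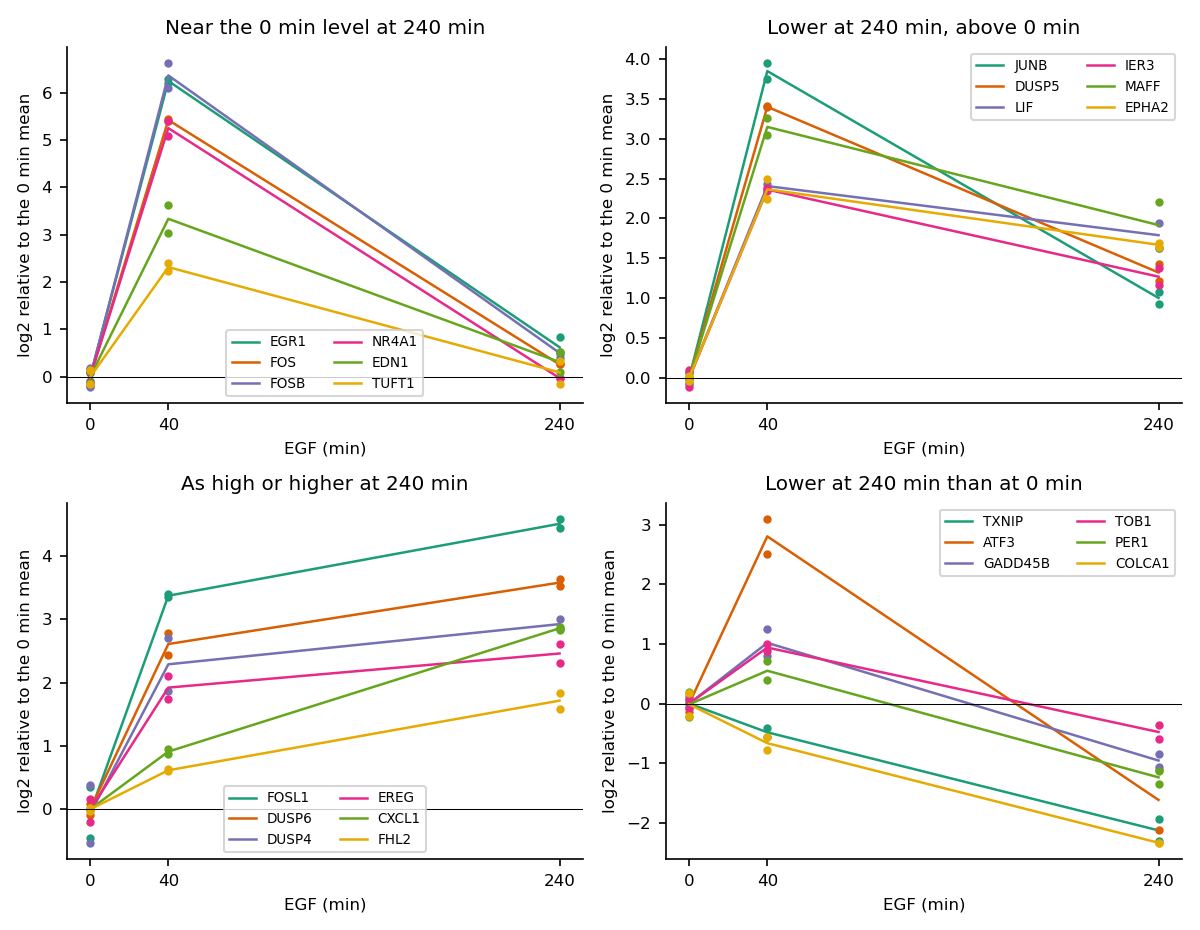
Scramble cells at 0, 40 and 240 min of EGF (x axis, to scale), as log2(normalised read count + 1) relative to the 0 min mean. Points are the 2 libraries of each time and lines join their means. The 24 genes were picked after their values were seen, as examples of 4 courses, from EGR1 with log2 changes against 0 min of 6.25 at 40 min and 0.63 at 240 min, to TXNIP with -0.48 and -2.13.

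The shLAD1 cells gave the same contrast in libraries that the calls above did not compare, although the fit shares its estimate of spread among all groups. Of the 444 higher genes 430 also had a positive change in shLAD1 cells, where 48.8% of all genes did, and 365 were called higher, which is 82.2% of the scramble list and 65.1% of the 561 genes higher in shLAD1 cells. Of the 86 lower genes 76 also had a negative change, where 51.2% of all genes did, and 40 were called lower, which is 46.5% of the scramble list and 38.1% of the 105 genes lower in shLAD1 cells. The calls in shLAD1 cells made up 4.02% and 0.753% of the genes tested. The median change of the lower genes was -0.40 in scramble cells and -0.26 in shLAD1 cells. EGR1 reached 31850.5 and 37098 counts at 40 min in shLAD1 cells against 358 and 646 at 0 min, and FOS reached 15049.6 and 16135 at 40 min against 269 and 292 at 0 min.

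The difference of the 40 min responses, shLAD1 minus scramble, was called for 10 genes in the positive direction (0.0717% of those tested) and 1 in the negative (0.00717%). LIF had 690.3 and 1077 counts at 40 min and 47.2 and 66.2 at 0 min in shLAD1 cells. In scramble cells it had 739 and 773 counts at 40 min and 135 and 149 at 0 min. Its log2 response was larger in shLAD1 cells by 1.52 (adjusted p = 6.2e-06), with overlapping counts at 40 min and lower counts at 0 min. CXCL8 had 140 and 174 counts at 40 min and 17.5 and 30.5 at 0 min in shLAD1 cells, against 236 and 186 at 40 min and 119 and 109 at 0 min in scramble cells, a log2 difference of 1.83 (adjusted p = 0.0015). MT1G had 15.4 and 31.4 counts at 40 min and 5.13 and 24.4 at 0 min in shLAD1 cells, where it was not called. In scramble cells it had 8.73 and 17.5 counts at 40 min and 34.2 and 105 at 0 min. The log2 difference was 3.07 (adjusted p = 0.0013). Without the population term limma called 0 genes, with 99 at an unadjusted p under 0.05, while edgeR, DESeq2 and voom with the term called 13, 11 and 13, among them 9, 8 and 9 of these 11 genes. Leaving out 1 library gave 3 to 42 calls, with 3 to 10 of the 11 among them.

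**Figure D4:**
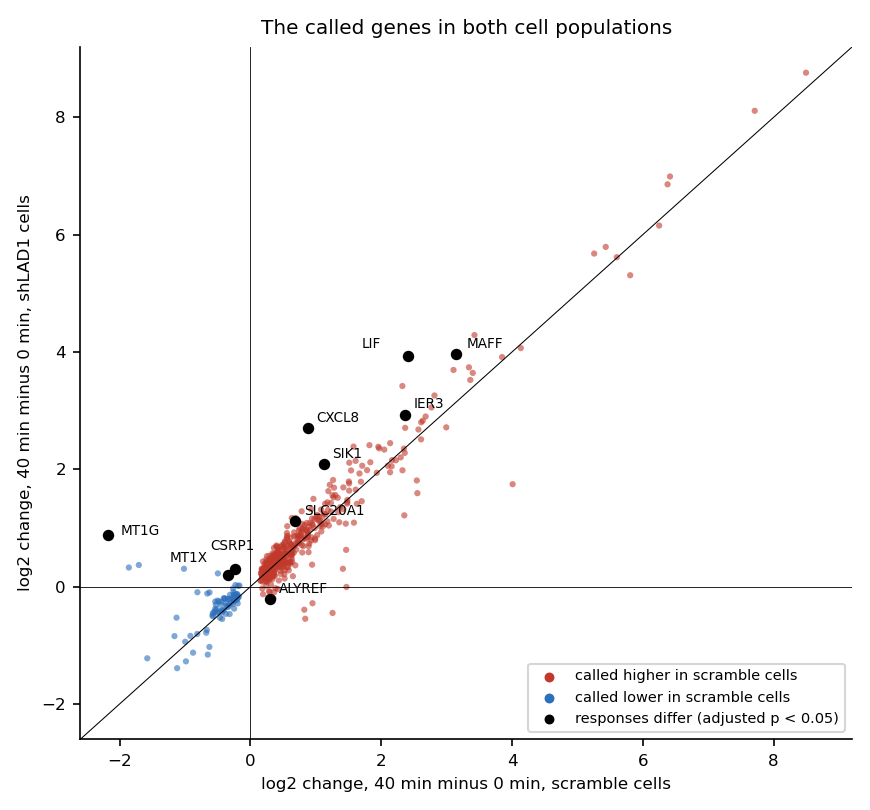
The 530 genes called in scramble cells, by their log2 change (40 min minus 0 min) in scramble cells (x axis) and in shLAD1 cells (y axis). Red genes were called higher and blue genes lower in scramble cells, black genes are those whose responses differed between the cells, and the thin diagonal marks equal change. Most points follow the diagonal, with LIF and CXCL8 above it at shLAD1 changes of 3.92 and 2.70.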

How the data were processed

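Poly-A RNA libraries (TruSeq RNA v2, per the labels' protocols) were made from 2 samples in each of 6 groups. The deposited table gives a signal per gene and library, read counts that the authors divided by a size factor; STAR, DESeq2 and hg19 are named in the submitters' processing notes, with no version, counting tool or annotation (not given in the sources used here). Besides these, the authors deposited a mean signal, a log2 fold change, a test score and p-values, not used here. Whole reads were recovered within 0.001. Genes with at least 10 normalised counts in at least 2 libraries (13950 of 26365) were tested with limma 3.58.1 (R 4.3.3, trend, robust) on log2(value + 1) over all 12 libraries, with a block for each cell population and Benjamini-Hochberg adjustment. Fold changes on this scale understate those of low genes. The block follows the labels' replicate numbers: deviations from group means correlated at 0.645 to 0.734 between same-numbered samples of the same shRNA (6 pairs of groups) and 0.247 to 0.307 across shRNAs (9 pairs). edgeR 4.0.16, DESeq2 1.42.0 and voom on the recovered reads, other scalings, pseudocounts, filters and left-out libraries were alternatives. The fit was also run on simulated data built with an effect per cell population, so that run cannot show whether the block is right. Named genes are the 15 largest rises and falls with a mean of at least 20 counts and no overlap, members of the gene lists, and LAD1, EGFR and FLNA. The members and lists were chosen with earlier results of these data known. Spans and 3′ UTRs are from GENCODE 29 and promoters from RefSeq (GRCh38.p14). Intervals cover counting error only. Some genes of the lists are not reported here.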

Additional observations from a re-analysis of the deposited data

Results flagged for a closer look

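The difference between the 40 min responses of shLAD1 and scramble cells was itself past the threshold (limma, Benjamini-Hochberg adjusted p) for 11 genes, given here as log2 differences, shLAD1 minus scramble. MT1G had 3.07 and MT1X 0.55, both metallothionein genes. CXCL8 had 1.83 and LIF 1.52, both secreted signals. SIK1 had 0.96, MAFF 0.82 and IER3 0.57, all called higher in scramble cells. CSRP1, a LIM-domain gene, had 0.54, with a change of -0.23 in scramble cells and 0.30 in shLAD1 cells. SLC20A1, a phosphate transporter gene, had 0.43, LPIN1, a lipin gene, 0.41 and ALYREF, an mRNA export gene, -0.52. At 0 min IER3 had 634 and 918 counts in shLAD1 cells against 1518 and 1310 in scramble cells, and LPIN1 805 and 831 against 1599 and 1725. LIF, CXCL8 and MT1G also started lower in shLAD1 cells. SIK1 and SLC20A1 overlapped between the cells at 0 min and were higher at 40 min in shLAD1 cells, with 730 and 634 against 385 and 326 counts in SIK1. All 11 kept their sign under every alternative run. Of the calls themselves, 3 to 10 of the 11 remained when 1 library was left out, 9 by edgeR, 8 by DESeq2 and 9 by voom, and none was called without the population term or with a term shared by both shRNAs.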

How the results depend on the processing

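Calls depended on the replicate block, here a term per cell population. With no replicate block (main counts in brackets) 118 genes were higher (444) and 1 lower (86) at 40 min in scramble cells, 142 higher (561) and 3 lower (105) in shLAD1 cells, 2813 were called at 240 min (6715) and 0 in the difference of responses (11). A replicate block shared by both shRNAs gave 195, 7, 257, 17 and 0 for the 40 min counts in that order and the difference. Scramble falls numbered 221 from the 4 libraries alone, 166 with total-count scaling and 20 with DESeq2. Falls in shLAD1 cells numbered 180 with upper-quartile factors, 364 with total-count scaling and 23 with DESeq2. Leaving out 1 library gave 262 to 277 rises and 18 to 30 falls in scramble cells, 349 to 408 rises and 32 to 97 falls in shLAD1 cells, and 3 to 42 differences. The lone sample left at a time is then assumed to vary like the other groups. The cause of these changes was not tested. No named gene that was called reversed its direction under any alternative run. In the 100 bases before the start, a CArG box stood in 8 of 342 higher genes (2.34%) and 1 of 71 lower genes (1.41%). The share over all genes tested with a promoter was 0.55% in that window. With 2 libraries a group, small changes and genes with few reads were the least certain.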

Other observations

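Keratin and basement membrane genes made up the called basal markers. KRT17, a keratin of basal and wound-edge epithelium, had 12924 and 11399.7 normalised read counts at 40 min in scramble cells, against 4414 and 3494 at 0 min, a log2 change of 1.63 ± 0.16 (SE, adjusted p = 0.014), a call lost whichever library was left out (adjusted p = 0.0728 to 0.161). KRT16 had 20989 and 25311 counts at 40 min and 13560.5 and 16392 at 0 min, a log2 change of 0.63 ± 0.07 (SE, adjusted p = 0.00043). LAMB3, a chain of laminin-332, had 6225 and 6375 counts at 40 min and 4182 and 3911 at 0 min, a log2 change of 0.64 ± 0.08 (SE, adjusted p = 0.0023). KRT5 and KRT6B were higher by log2 changes of 0.27 and 0.35, lost without library 2 of either time (KRT5, adjusted p = 0.129 and 0.144) and whichever library was left out (KRT6B, adjusted p = 0.0542 to 0.127). Among 8 tested luminal markers KRT8 and KRT18 were higher by 0.25 and 0.41, and GATA3 was lower by a log2 change of -0.20, with KRT8 lost without 0 min library 2 (adjusted p = 0.0816) and GATA3 whichever library was left out (adjusted p = 0.0939 to 0.59). Of the 5 basal calls 1 passed without the population term.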
